A study of Rattus norvegicus with 24 samples.

Results

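The proteins of the mitochondrial ribosome were examined at the level of their transcripts in rat quadriceps muscle. The members were all rows of the deposited gene table whose symbol begins with Mrpl or Mrps followed by a digit, which gave 75 of 21067 genes, 46 named Mrpl and 29 named Mrps. A further 3 rows with lower-case symbols (mrpl9, mrpl11 and mrpl24) were not taken by this rule, and their levels are given at the end of the account of levels. All 75 members passed the filter on low values, a mean of at least 0.1 FPKM over the 24 libraries (reads scaled to transcript length and to the size of the library), which 14772 genes passed, and the lowest count of any member in any library was 205. The symbols are those of the table, and 40 of the 75 rows carry the table's own KEGG annotation to the ribosome.

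The libraries came from Sprague-Dawley rats of both sexes, 6 weeks old when obtained, with 6 libraries in each of 4 groups. Rats of the control group were fed normally and were not trained. The treadmill group ran an incremental programme for 7 weeks, with an electrified grid at the tail of the lane, and then ran to exhaustion before the tissue was taken. In the group called catgut1 here, pieces of collagen thread were embedded at 6 named acupoints under ether, followed by a week of rest and the same training and exhaustion, and in catgut2 the point Fei Shu was added to these. No group had thread embedded without training and none had a sham embedding, so both catgut groups differ from control in training, exhaustion and embedding together. The labels name no animal for a library, so the p-values measure the spread between these libraries.

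Mitochondrial ribosomes translate the few messenger RNAs encoded by mitochondrial DNA, all of which specify subunits of the respiratory chain and of ATP synthase. The ribosomal RNAs are made inside the organelle, whereas every ribosomal protein is encoded in the nucleus, translated in the cytosol and imported. The particle has a large subunit, which forms peptide bonds, and a small subunit, which reads the messenger. Some of its proteins have counterparts in bacterial ribosomes and others are found in mitochondria alone. Skeletal muscle, with its high demand for respiration, is rich in them, and slow oxidative fibres hold more mitochondria than fast glycolytic ones.

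The promoters of these genes are shown first, because a shared promoter sequence is a property that the rule did not use. RefSeq windows of 300 bases on the GRCr8 assembly, from 250 bases before to 50 bases after the annotated start, matched 60 of the 75 members by symbol. The 15 others are Mrpl13, Mrpl15, Mrpl16, Mrpl19, Mrpl21, Mrpl35, Mrpl38, Mrpl43, Mrps12, Mrps22, Mrps24, Mrps28, Mrps34, Mrps35 and Mrps36. The windows were searched on both strands for 3 short sequences known as core binding sites of regulators of nuclear genes for mitochondrial proteins, and each was counted by itself whether or not it overlapped another. CGCANGCG, the core of the nuclear respiratory factor NRF1, lay in 16 of the 60 windows (26.7%), against 7.60% of the 33469 windows of all rat genes in the same set. CCGGAAG, an ETS core such as that bound by GABP (nuclear respiratory factor NRF2), lay in 21 windows (35%), against 8.75% of all windows. AAGATGG, a core of YY1, lay in 16 windows (26.7%), against 7.01% of all. At least 1 of the 3 lay in 39 windows (65.0%), against 20.5% of all. The set of all windows includes genes that muscle does not express and genes that encode no protein, so these shares describe the windows and not binding.

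The 150 bases just before the annotated start are printed for 7 of the 9 members named below for the smallest p-values in a comparison of groups, the other 2 (Mrpl38 and Mrps35) being among the unmatched. They run 5′ to 3′ on the strand of the gene, and capitals mark a match to any of the 3 sequences.
Mrpl57 (chr15:36086307-36086456, plus strand): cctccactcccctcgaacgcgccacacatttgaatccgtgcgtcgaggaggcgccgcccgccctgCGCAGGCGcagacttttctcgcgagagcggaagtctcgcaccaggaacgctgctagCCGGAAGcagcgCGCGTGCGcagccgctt
Mrpl44 (chr9:88554900-88555049, plus strand): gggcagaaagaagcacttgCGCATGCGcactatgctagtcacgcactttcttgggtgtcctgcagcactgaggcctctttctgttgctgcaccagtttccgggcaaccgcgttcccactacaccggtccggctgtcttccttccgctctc
Mrpl20 (chr5:171691048-171691197, plus strand): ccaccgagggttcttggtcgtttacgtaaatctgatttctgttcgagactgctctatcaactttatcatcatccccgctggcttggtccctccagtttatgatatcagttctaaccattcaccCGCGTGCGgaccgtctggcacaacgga
Mrps14 (chr13:74962447-74962596, plus strand): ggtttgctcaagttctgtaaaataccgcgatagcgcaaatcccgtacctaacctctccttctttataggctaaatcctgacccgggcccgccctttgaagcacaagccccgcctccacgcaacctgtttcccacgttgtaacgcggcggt
Mrpl42 (chr7:32028523-32028672, minus strand): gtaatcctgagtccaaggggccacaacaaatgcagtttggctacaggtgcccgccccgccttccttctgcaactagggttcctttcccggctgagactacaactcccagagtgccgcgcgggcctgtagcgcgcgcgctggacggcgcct
Mrpl47 (chr2:117447362-117447511, minus strand): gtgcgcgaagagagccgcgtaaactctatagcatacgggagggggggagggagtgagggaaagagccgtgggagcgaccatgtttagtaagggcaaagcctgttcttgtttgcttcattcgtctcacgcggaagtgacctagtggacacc
Mrps26 (chr3:138222174-138222323, plus strand): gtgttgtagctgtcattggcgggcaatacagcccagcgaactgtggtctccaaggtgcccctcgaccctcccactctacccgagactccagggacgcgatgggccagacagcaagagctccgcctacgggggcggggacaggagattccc
Mrpl57 held 2 matches to the NRF1 core and 1 to the ETS core within these bases, and Mrpl44 and Mrpl20 each held 1 NRF1 core. Mrps14, Mrpl42, Mrpl47 and Mrps26, 4 of the 7, held no match in the part shown, which says only that these letters are absent from it. In the whole windows of 300 bases, Mrps26 held an NRF1 and an ETS core, Mrpl42 a YY1 core and Mrpl20 also an ETS core. The windows of Mrps14 and Mrpl47 held none of the 3 sequences.

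The members lay on 18 chromosomes, with the most (12 each) on chromosomes 1 and 10. By the coordinates in the table, whose genome build is not given in the sources used here, 16 of the 75 members (21.3%) had a gene on the other strand that started within 1000 bases upstream and ran the opposite way, against 6.97% of all genes in the table and 8.74% of those tested. Mrps11 and Mrpl46, a small-subunit and a large-subunit gene on chromosome 1, formed such a pair with each other, with their starts 72 bases apart. Mrps12 and Sars2, the gene of the mitochondrial seryl-tRNA synthetase, had starts 16 bases apart. Mrpl47 lay 266 bases from Ndufb5, which encodes a subunit of respiratory complex I. In all, 10 members overlapped a gene on the opposite strand, among them Mrpl47 with Actl6a over 1443 bases, Mrpl57 with Ska3 over 1073 bases, Mrps18a with Rsph9 and Mrpl30 with Mitd1. Whether the counting used strand is not given in the sources used here, so reads within an overlap cannot be assigned to 1 of the genes. How many of all genes overlap in this way was not counted.

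The members were expressed well above the middle of the transcriptome and far below the proteins of the cytosolic ribosome. Their median level (each gene taken as its mean FPKM over the 24 libraries) was 32.1 FPKM, against 3.15 FPKM over all genes tested, and 72 of the 75 members had a mean above 10 FPKM. The 79 genes of cytosolic ribosomal proteins had a median of 218 FPKM, and the 13 protein genes of mitochondrial DNA, whose messengers this ribosome reads, had a median of 5703 FPKM. Mrpl members had a median of 34.1 FPKM and Mrps members 31.2 FPKM. Split by the subunit they belong to and by ancestry, with Mrps36 left out, the 27 large-subunit members with a bacterial counterpart had a median of 36.1 FPKM, the 21 large-subunit members specific to mitochondria 28.5 FPKM, the 16 small-subunit members with a counterpart 31.1 FPKM and the 10 small-subunit members without one 27.7 FPKM. Levels per gene spread much more widely than these medians differ. This split counts Mrps18a and Mrps18b as specific to mitochondria, although both stem from a bacterial protein.

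**Figure D1:**
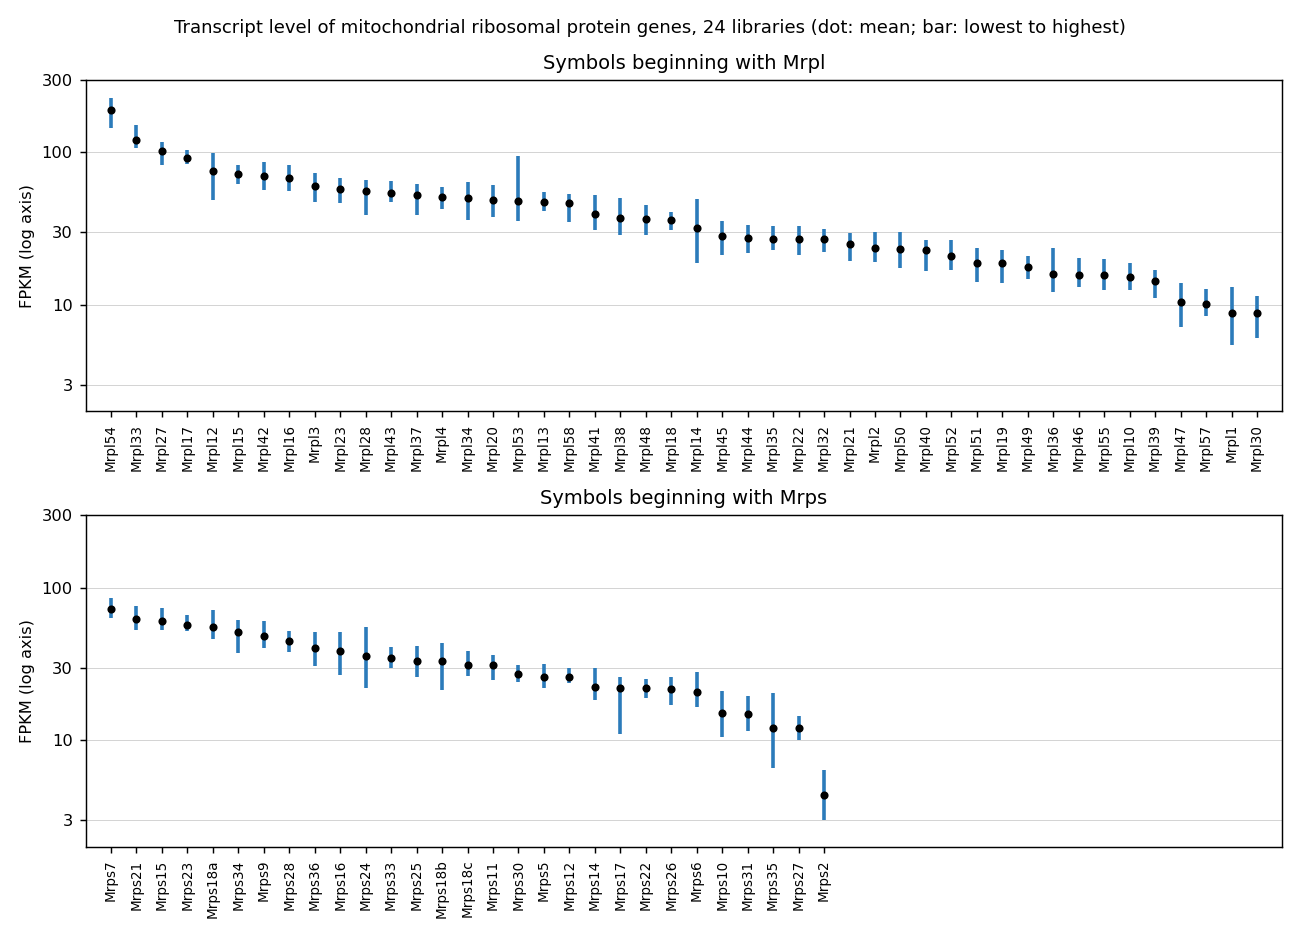
Transcript level of each member in FPKM on a log axis, with Mrpl symbols above and Mrps symbols below, sorted by mean. Dots are means over 24 libraries and bars run from the lowest to the highest library. Means run from 4.36 FPKM (Mrps2) to 190 FPKM (Mrpl54), and most bars are short beside that range.

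The 5 highest members all belong to the large subunit. Mrpl54, a protein specific to mitochondria, led with a mean of 190 FPKM (145 to 228 over the 24 libraries), which placed it 352nd among all genes tested. Mrpl33, Mrpl27 and Mrpl17, which have bacterial counterparts, followed with 120, 102 and 92.2 FPKM, and Mrpl12, a protein of the stalk that recruits translation factors, with 75.2 FPKM. Among these, Mrpl17 varied least, with 84.4 to 103 FPKM over all libraries, so that its order against Mrpl12 (49.1 to 98.6 FPKM) does not hold in every library. The 5 lowest were Mrpl47 (10.5 FPKM), Mrpl57 (10.2 FPKM), Mrpl1 of the mobile stalk near the exit site (8.86 FPKM), Mrpl30 (8.82 FPKM) and Mrps2, a core protein of the small subunit (4.36 FPKM, 2.99 to 6.40 over the libraries). Mrpl1 and Mrpl30 do not differ beyond their spread, with ranges of 5.48 to 13.0 and 6.06 to 11.5 FPKM, and the same holds for Mrpl47 and Mrpl57.

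Of the 3 paralogs that stem from a single bacterial small-subunit protein, Mrps18a, which sits in the large subunit, was highest at 55.5 FPKM, Mrps18b had 33.3 FPKM and Mrps18c 31.2 FPKM. The ranges of Mrps18b (21.4 to 43.5 FPKM) and Mrps18c (26.2 to 38.7 FPKM) overlapped, while that of Mrps18a (46.2 to 72.1 FPKM) lay above both. Mrps30, another protein of the large subunit despite its symbol, had 27.1 FPKM (24.2 to 31.0). Mrps36, now known chiefly as a component of the oxoglutarate dehydrogenase complex, had 40.2 FPKM (30.5 to 51.5). In control muscle the 3 rows with lower-case symbols had 51.8 ± 4.15 FPKM (SD, n = 6) for mrpl11, 35.7 ± 1.67 for mrpl9 and 26.0 ± 2.65 for mrpl24, within the range of the members.

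Total counts lay between 45945938 and 78278080 per library, and the members took 0.303% to 0.371% of them. Transcripts of mitochondrial DNA took 10.3% to 23.2%. The 5 skeletal muscle markers in the table summed to between 61825 and 85515 FPKM in each library, while 2 listed myosins (Myh2 and Myh4) have no row. Markers of slow fibres (5 genes, Myh7 and Tnni1 among them) summed to between 5.99 and 4156 FPKM, a far wider range than that of any member. Liver transcripts summed to 161 FPKM in 1 control library and to 261 FPKM in 1 treadmill library, and to at most 0.725 FPKM in the catgut libraries. The median sum was 0.412 FPKM in control, 3.96 in treadmill, 0.213 in catgut1 and 0.452 in catgut2. Y-linked transcripts exceeded 1 FPKM in 3 control, 3 treadmill, 3 catgut1 and 2 catgut2 libraries, although the study describes equal numbers of each sex in every group.

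The typical member differed less between libraries of 1 group than the typical gene tested, in a comparison not matched for level. The median level was 32.1 FPKM for members and 3.15 FPKM for all genes tested. The SD within groups on the log2 CPM scale (counts scaled to library size by TMM, the trimmed mean of M values) had a median of 0.22 over the members, against 0.33 over all genes tested and 0.18 over cytosolic ribosomal proteins. The 3 members with the largest spread over all libraries were Mrps35, Mrpl14 and Mrpl53. Mrps35, a small-subunit protein specific to mitochondria, ran from 6.55 to 20.6 FPKM, and already within the control group from 6.87 to 20.6. Mrpl14, a large-subunit protein with a bacterial counterpart, ran from 18.8 to 49.2 FPKM, both extremes being treadmill libraries. Mrpl53 stood at 95.1 FPKM in control replicate 1, at 84.3 and 81.8 FPKM in treadmill replicates 1 and 4 and at 61.0 FPKM in catgut1 replicate 3, and between 35.5 and 48.5 FPKM in the other 20 libraries. The 6 catgut2 libraries held it within 38.1 to 43.5 FPKM.

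Between libraries of the same group the members moved together, but how closely depended on the scale. For each gene the deviation of every library from its group mean was taken, and deviations were correlated between genes over the 24 libraries, which share depth and scaling, as a description with no test. On the TMM-scaled log2 CPM scale the median correlation over the 2775 pairs of members was r = 0.57, with 97.9% of pairs above 0, against a median of -0.0004 over all genes tested and 0.024 over the 6072 genes whose mean FPKM lay within the range of the members. On log2(FPKM + 1), scaled to the total of each library, the same median was 0.20 with 74.8% of pairs above 0, against 0.14 for all genes and 0.14 for genes in the range of the members. By symbol the TMM-scale median was 0.57 between Mrpl genes, 0.57 between Mrps genes and 0.57 between Mrpl and Mrps genes. With each library left out in turn the median over all members ran from 0.53 to 0.60 on the TMM scale and from 0.16 to 0.22 on the FPKM scale. Cytosolic ribosomal proteins gave 0.49 on the TMM scale and 0.47 on the FPKM scale, and genes of mitochondrial DNA 0.77 and 0.64.

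Single members followed the rest to different degrees. On the TMM scale the correlation of a member with the median of the other members ran from 0.11 to 0.97, and 61 of 75 exceeded 0.5, whereas on the FPKM scale it ran from -0.35 to 0.82 and 35 of 75 exceeded 0.5. Mrpl12 was highest and Mrps31, Mrpl51 and Mrpl49 were lowest on the TMM scale, the last 3 named after their values were seen. The divergent pair Mrps11 and Mrpl46 had r = 0.91 on the TMM scale and 0.76 on the FPKM scale. On the TMM scale both also followed the median of the other members closely, Mrps11 at 0.96 and Mrpl46 at 0.92. The paralogs moved less closely than that pair. On the 2 scales Mrps18a and Mrps18b stood at 0.64 and 0.30, and Mrps18a and Mrps18c at 0.71 and 0.38. Mrps18b and Mrps18c stood at 0.40 and -0.18. The median over all pairs of members was 0.57 and 0.20, and of these paralog pairs only Mrps18b with Mrps18c lay below it.

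**Figure D2:**
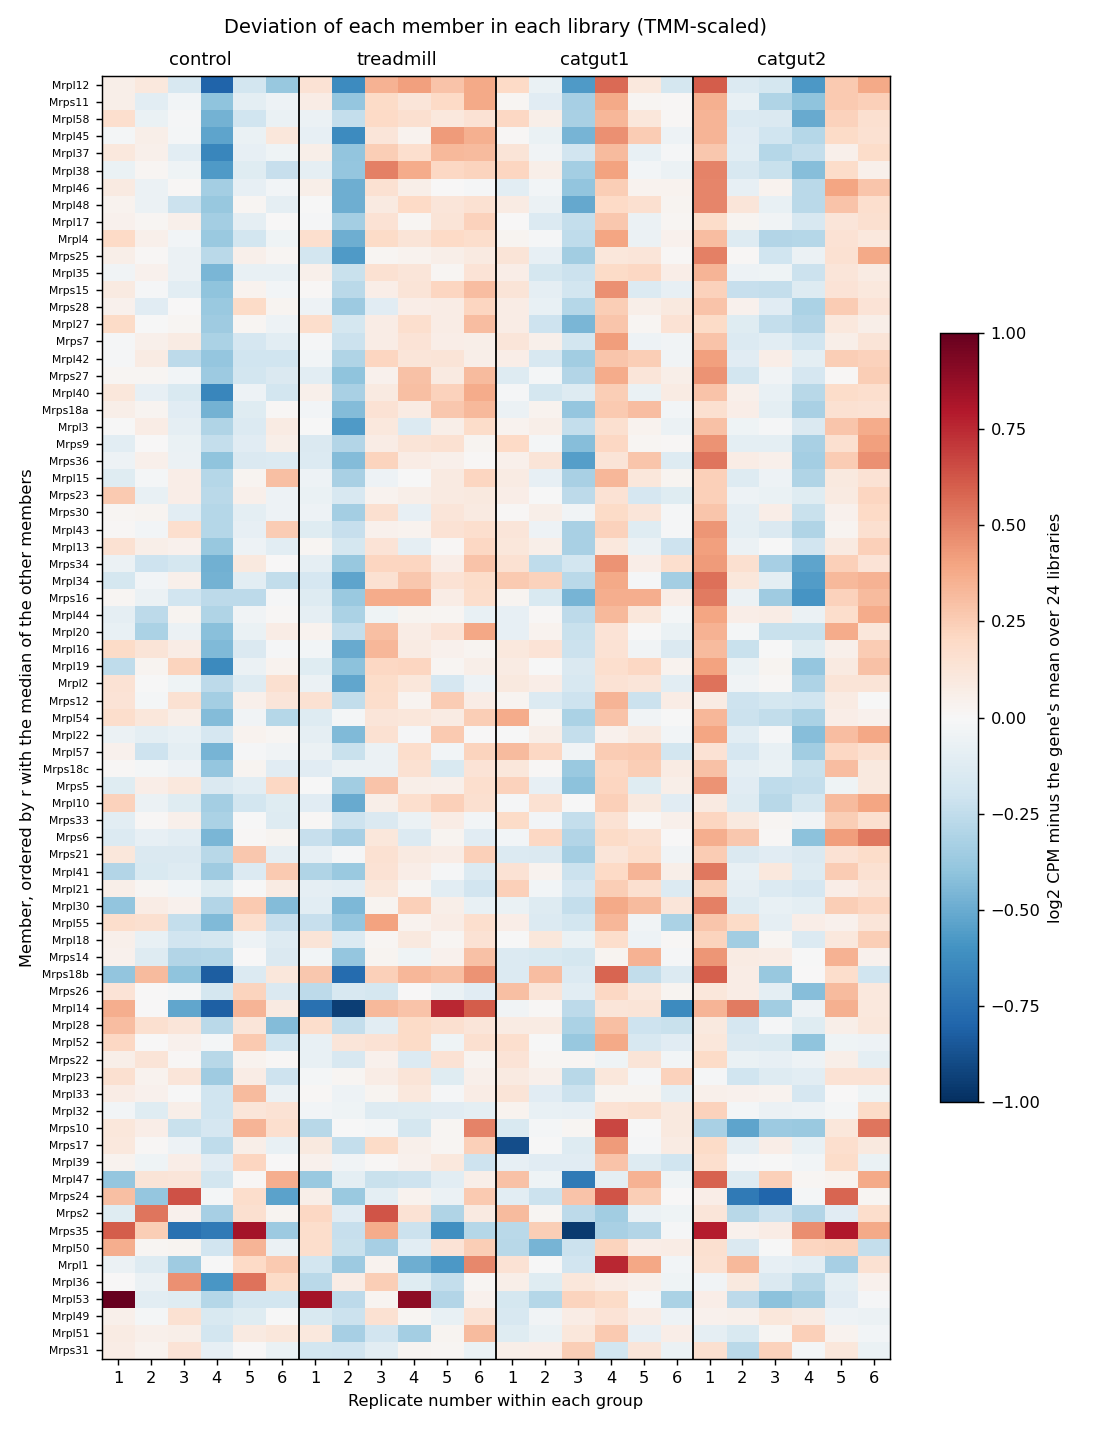
Deviation of each of the 75 members (rows) in each of the 24 libraries (columns, by group and replicate) from its mean over all libraries, in log2 CPM with TMM scaling, red above and blue below, with colours ending at 1 and -1 (1 of the 1800 values lies beyond). Rows are ordered by correlation with the median of the other members; control replicate 4 and treadmill replicate 2 are blue in nearly every row, and catgut2 replicate 1 and catgut1 replicate 4 red.

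Some libraries stood apart in most members at once. In control replicate 4, 75 of 75 members lay below their mean over all libraries, by a median of 0.34 on the TMM scale. In treadmill replicate 2, 72 of 75 did, by a median of 0.32. Catgut1 replicate 3 (67 below, median -0.24) and catgut2 replicate 4 (68 below, median -0.20) were the lowest of their groups. At the other end stood catgut2 replicate 1, with 71 of 75 above their mean and a median of 0.29, and catgut1 replicate 4, with 70 above and a median of 0.24. On the FPKM scale these libraries moved less (-0.12, -0.09, -0.07, -0.10, 0.10 and 0.06 in the same order), and there the median of all genes itself ran from -0.13 to 0.16 between libraries. Set against that median, the order of the TMM scale was kept, with -0.26, -0.25, -0.17, -0.15, 0.22 and 0.19. Set against genes with a mean FPKM in the range of the members, the values were -0.22, -0.23, -0.22, -0.18, 0.24 and 0.15. There control replicate 4 was no longer the lowest. On the TMM scale the genes in that range had a median of -0.10 in control replicate 4, and the members lay at -0.24 relative to them. The medians of Mrpl and of Mrps genes stayed close to each other, for example -0.35 and -0.32 in control replicate 4 and 0.30 and 0.28 in catgut2 replicate 1.

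**Figure D3:**
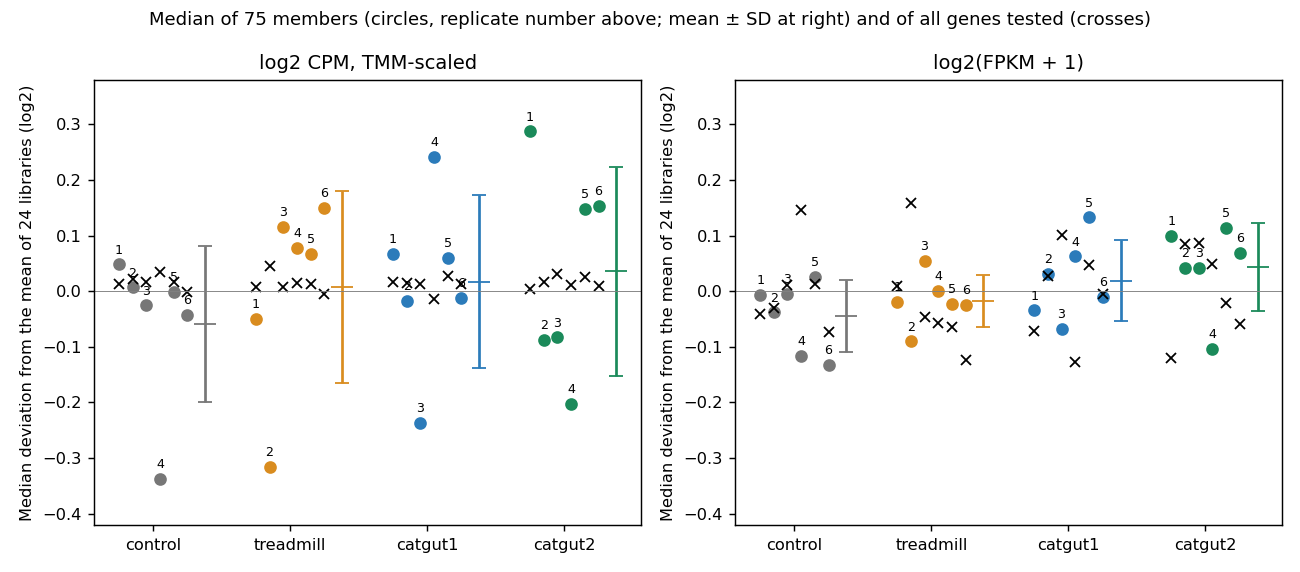
Median deviation (log2) of the 75 members in each library, on the TMM-scaled log2 CPM scale (left) and on log2(FPKM + 1) (right), by group, with replicate numbers above the circles and the group mean ± SD at the right of each group. Crosses give the median of all genes tested in the same library, which lies near 0 on the left and runs from -0.13 to 0.16 on the right; the 4 groups overlap on both scales.

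Other measures moved in the same libraries, and their part in the members' levels was not tested. The slow-fibre markers summed to 31.8 FPKM in control replicate 4 and to 5.99 FPKM in treadmill replicate 2, the lowest of their groups, to 120 FPKM in catgut1 replicate 3 and to 494 FPKM in catgut2 replicate 4. They summed to 2980 FPKM in catgut2 replicate 1, but to 637 FPKM in catgut1 replicate 4, below 3 other libraries of its group, and to 9.82 FPKM in catgut1 replicate 6, whose members lay at -0.01. Transcripts of mitochondrial DNA took 23.2% of counts in catgut2 replicate 1 and 12.2% in catgut1 replicate 4, the lowest share of its group, although both stood high in the members. In a bulk sample, fewer oxidative fibres and less of these transcripts per fibre cannot be told apart.

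By group the library medians of the members on the TMM scale were -0.06 ± 0.14 (SD, n = 6) in control, 0.01 ± 0.17 in treadmill, 0.02 ± 0.16 in catgut1 and 0.04 ± 0.19 in catgut2. Control libraries ran from -0.34 to 0.05, treadmill libraries from -0.32 to 0.15, catgut1 libraries from -0.24 to 0.24 and catgut2 libraries from -0.20 to 0.29, so that on this scale the groups overlapped and their means differed by less than the SD within any of them. On the FPKM scale, where the spread within groups was smaller, the same medians were -0.05 ± 0.06 in control, -0.02 ± 0.05 in treadmill, 0.02 ± 0.07 in catgut1 and 0.04 ± 0.08 in catgut2. There the means of control and catgut2 differed by more than the SD within each group, while their ranges (-0.13 to 0.03 and -0.10 to 0.11) overlapped. The sum of all members was 2844 ± 160 FPKM in control (2647 to 2996), 2953 ± 80.1 in treadmill (2821 to 3055), 2968 ± 159 in catgut1 (2765 to 3191) and 3026 ± 190 in catgut2 (2682 to 3194). The sums of all groups overlapped, and that of catgut2 exceeded that of control by more than the SD of control and by less than the SD of catgut2.

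Treadmill training with exhaustion against control addressed what exercise-induced fatigue does to these transcripts. The median log2 fold change (a log2 difference fitted by edgeR, treadmill minus control) of the members was 0.060, against -0.0020 over all genes tested, and 55 of 75 lay above 0, where 49.7% of all genes did. No member passed an adjusted p of 0.05 (edgeR's quasi-likelihood test, Benjamini-Hochberg over 14772 genes), where 0.0542% of genes did. At an unadjusted p of 0.05, 2 members were higher (2.67%) and 0 lower, against 4.03% and 5.08% of all genes. No member met the study's own criterion, a ratio of group means above 1.5 or below 0.667 together with p below 0.05 before adjustment, which 2.85% of genes met. The values rested on a few libraries: the median was 0.0078 without control replicate 4, and 0.11 without treadmill replicate 2. In that last fit 18 members were higher at an unadjusted p of 0.05 (24%), where 6.09% of all genes were higher and 8.17% lower.

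Mrpl20, a large-subunit protein with a bacterial counterpart, had the smallest p of the comparison. Its levels ran from 37.8 to 47.9 FPKM (median 46.0) in control and from 48.1 to 57.7 FPKM (median 50.5) in treadmill, so that every treadmill library lay above every control library. The estimated log2 difference was 0.26 ± 0.11 (SE; edgeR's adjusted p = 0.53). The exact permutation test of log2(FPKM + 1), two-sided, gave p = 0.00216, the smallest that 6 against 6 libraries allow, before any adjustment for the 450 tests of members. Mrpl38, specific to mitochondria, ran from 28.8 to 36.2 FPKM (median 34.2) in control and from 32.8 to 50.0 FPKM (median 38.8) in treadmill, the estimated log2 difference being 0.32 ± 0.14 (SE; adjusted p = 0.54). Mrpl12 had the largest log2 difference of the comparison, 0.39 ± 0.18 (SE; adjusted p = 0.55), with 49.1 to 77.0 FPKM in control and 55.6 to 93.0 FPKM in treadmill, and these ranges overlapped.

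Catgut1 against treadmill set the smaller set of acupoints against training alone. The members were centred on no difference, with a median log2 fold change of -0.0040 (all genes -0.011), and 35 of 75 lay above 0, where 47.8% of all genes did. By edgeR 0 members passed an adjusted p of 0.05, where 0.0474% of genes did. At an unadjusted p of 0.05, 1 member was higher (1.33%) and 0 lower, against 3.44% and 3.49% of all genes, and 0 met the criterion of the study, which 3.12% met. The sign of the median turned with single libraries, to 0.045 without catgut1 replicate 3 and -0.063 without treadmill replicate 2. The 1 member was Mrps26, a small-subunit protein specific to mitochondria. It ran from 17.6 to 22.4 FPKM (median 18.8) in treadmill and from 21.9 to 24.7 FPKM (median 23.3) in catgut1, and only 1 treadmill library reached into the catgut1 range. The log2 difference came to 0.24 ± 0.081 (SE; adjusted p = 0.48 by edgeR, exact permutation p = 0.0065). The control libraries, from 18.2 to 25.6 FPKM, spanned both groups.

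Catgut2 against treadmill asked the same of the set with Fei Shu added. The median log2 fold change of the members was 0.025 (all genes 0.0035), and 43 of 75 lay above 0, where 50.6% of all genes did. By edgeR 0 members passed an adjusted p of 0.05, where 0.237% of genes did. At an unadjusted p of 0.05, 5 members were higher (6.67%) and 0 lower, against 5.60% and 5.14% of all genes, and 0 met the study's criterion, which 3.76% met. Without treadmill replicate 2 the median was -0.037, and without catgut2 replicate 4 it was 0.053 with 8 members higher (10.7%), where 5.39% of all genes were.

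Mrpl44, a large-subunit protein with the fold of an RNase III enzyme, separated these groups fully. It ran from 22.9 to 26.3 FPKM (median 25.7) in treadmill and from 27.9 to 33.3 FPKM (median 31.3) in catgut2, the estimated log2 difference being 0.26 ± 0.094 (SE; adjusted p = 0.32 by edgeR, exact permutation p = 0.00216). Mrps35 ran from 6.98 to 14.1 FPKM (median 10.3) in treadmill and from 12.8 to 19.4 FPKM (median 15.3) in catgut2, which gave a log2 difference of 0.56 ± 0.18 (SE; adjusted p = 0.27). Its ranges overlapped, and the highest of all libraries was a control one. Mrpl47, a large-subunit protein near the exit of the nascent chain that overlaps Actl6a, ran from 8.16 to 11.3 FPKM (median 8.78) in treadmill and from 10.3 to 13.7 FPKM (median 11.9) in catgut2, which gave a log2 difference of 0.37 ± 0.12 (SE; adjusted p = 0.27). The other 2 members, named after their values were seen, were the small-subunit genes Mrps33 (0.18 ± 0.075 SE, adjusted p = 0.40) and Mrps6 (0.33 ± 0.15 SE, adjusted p = 0.43). The largest log2 difference downward was that of Mrpl53, -0.46 ± 0.22 (SE; adjusted p = 0.48), in which the 2 high treadmill libraries stand against the narrow catgut2 group.

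Catgut2 against catgut1 differs in the added acupoint. The median log2 fold change of the members was 0.019 (all genes 0.0070), and 44 of 75 lay above 0, where 51.6% of all genes did. By edgeR 0 members passed an adjusted p of 0.05, where 0.00677% of genes did. At an unadjusted p of 0.05, 1 member was higher (1.33%) and 0 lower, against 1.87% and 1.39% of all genes. That member, Mrps35, was also the only one in any comparison to meet the study's criterion, which 1.25% of genes met here. It ran from 6.55 to 14.0 FPKM (median 9.25) in catgut1 and from 12.8 to 19.4 FPKM in catgut2, with 1 catgut1 library inside the range of catgut2. The ratio of means was 1.60 and the log2 difference 0.68 ± 0.19 (SE; adjusted p = 1.00 by edgeR, exact permutation p = 0.0087). The median over members was -0.044 without catgut2 replicate 1 and was 0.074 without catgut1 replicate 4.

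Catgut1 against control combines training, exhaustion and embedding. The median log2 fold change of the members was 0.079 (all genes -0.012), and 56 of 75 lay above 0, where 47.9% of all genes did. By edgeR 0 members passed an adjusted p of 0.05, where 0.0203% of genes did. At an unadjusted p of 0.05, 1 member was higher (1.33%) and 0 lower, against 4.78% and 5.06% of all genes, and 0 met the study's criterion, which 4.62% met. The median was 0.027 without catgut1 replicate 4, 0.036 without control replicate 4, and 0.11 without catgut1 replicate 3, in which fit 10 members were higher (13.3%), where 6.12% of all genes were higher and 6.07% lower. Mrpl57, a small large-subunit protein specific to mitochondria whose gene overlaps Ska3, was the 1 member. It ran from 8.47 to 10.2 FPKM (median 9.41) in control and from 8.89 to 12.8 FPKM (median 11.4) in catgut1, with 5 of 6 catgut1 libraries above every control library. The log2 difference came to 0.26 ± 0.11 (SE; adjusted p = 0.46 by edgeR).

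Catgut2 against control gave the widest shift of the members. Their median log2 fold change was 0.11 (all genes -0.0050), with the middle of the members between 0.012 (lower quartile) and 0.18 (upper quartile), and 60 of 75 lay above 0, where 49.3% of all genes did. By edgeR 0 members passed an adjusted p of 0.05, where 0.508% of genes did. At an unadjusted p of 0.05, 7 members were higher (9.33%), close to the 8.04% of all genes, and 0 were lower, where 8.40% of all genes were. The study's criterion was met by 0 members and 5.96% of genes. The median was 0.046 without control replicate 4, 0.052 without catgut2 replicate 1, and 0.16 without catgut2 replicate 4. In that last fit 17 members were higher (22.7%), where 9.78% of all genes were higher and 10.5% lower, and genes past an adjusted p of 0.05 rose from 75 to 492 with no member among them. 

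Mrps14, a small-subunit protein with a bacterial counterpart, had the smallest p. It ran from 18.3 to 22.7 FPKM (median 20.4) in control and from 21.6 to 27.7 FPKM (median 25.6) in catgut2, with 5 of 6 catgut2 libraries above every control library, and the log2 difference came to 0.30 ± 0.092 (SE; adjusted p = 0.15 by edgeR, exact permutation p = 0.0065). Mrpl44 ran from 22.0 to 28.2 FPKM (median 25.7) in control, and the log2 difference came to 0.28 ± 0.090 (SE; adjusted p = 0.16, exact permutation p = 0.0043), with 5 of 6 catgut2 libraries above every control library. Mrpl42, a large-subunit protein specific to mitochondria, ran from 56.9 to 71.1 FPKM (median 61.7) in control and from 69.2 to 81.3 FPKM (median 78.3) in catgut2, which gave a log2 difference of 0.29 ± 0.10 (SE; adjusted p = 0.19). Mrps36 stood at 33.9 to 39.8 FPKM in control and 33.5 to 51.5 FPKM in catgut2, which gave a log2 difference of 0.31 ± 0.13 (SE; adjusted p = 0.25), and the lowest catgut2 library lay below every control one. Mrps33, Mrps6 and Mrpl41, named after their values were seen, had log2 differences of 0.20, 0.34 and 0.27 (adjusted p of 0.24 to 0.30).

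Markers of other cells moved in the comparisons with control as well, none past an adjusted p of 0.05, and their part in the members' values was not tested. In the order treadmill, catgut1 and catgut2 vs control, the 5 slow-fibre markers had median log2 fold changes of 1.25, 1.97 and 2.12, with 5 of 5 above 0 each time. The 4 adipocyte markers had -1.14, -1.80 and -1.23, with 0 of 4 above 0, and the 2 erythroid markers 0.93, 0.84 and 0.97. The 2 endothelial markers had 0.42, 0.22 and 0.41 and the 3 macrophage markers 0.50, 0.048 and 0.090. The largest shifts were those of the 3 liver markers, 0.67, -8.83 and -6.66. Against treadmill the liver markers had -9.69 in catgut1 and -7.34 in catgut2. Liver markers summed to between 0.145 and 161 FPKM in control (median 0.412) and between 0.518 and 261 FPKM in treadmill (median 3.96). The median sums were 0.213 FPKM in catgut1 and 0.452 FPKM in catgut2, so the fold changes against control do not describe a typical library. Adipocyte markers summed to between 0.116 and 30.2 FPKM in control and to at most 7.89 FPKM in treadmill, 6.88 in catgut1 and 13.3 in catgut2. Erythroid markers summed to between 81.4 and 144 FPKM in control and to as much as 455, 461 and 498 FPKM in the other groups.

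**Figure D4:**
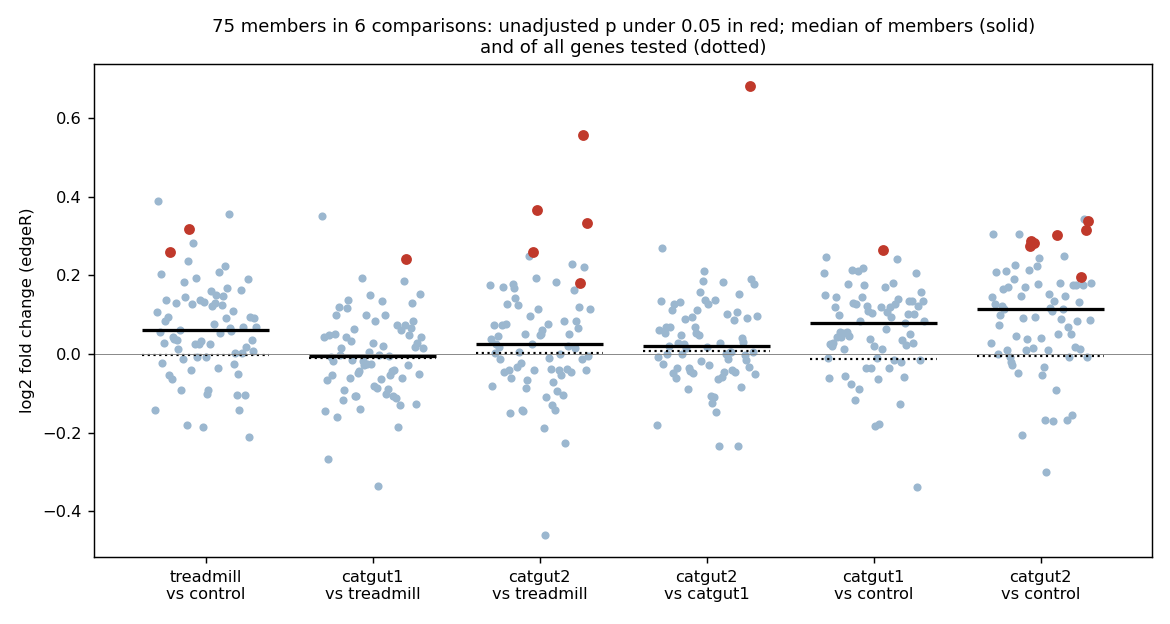
Log2 fold change (edgeR) of each of the 75 members in the 6 comparisons, in red where the unadjusted p was under 0.05, with the median of the members (solid line) and of all genes tested (dotted line). All 17 red points lie above 0, none passed an adjusted p of 0.05, and the solid line lies farthest from the dotted one in catgut2 vs control (0.11 against -0.0050).

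**Figure D5:**
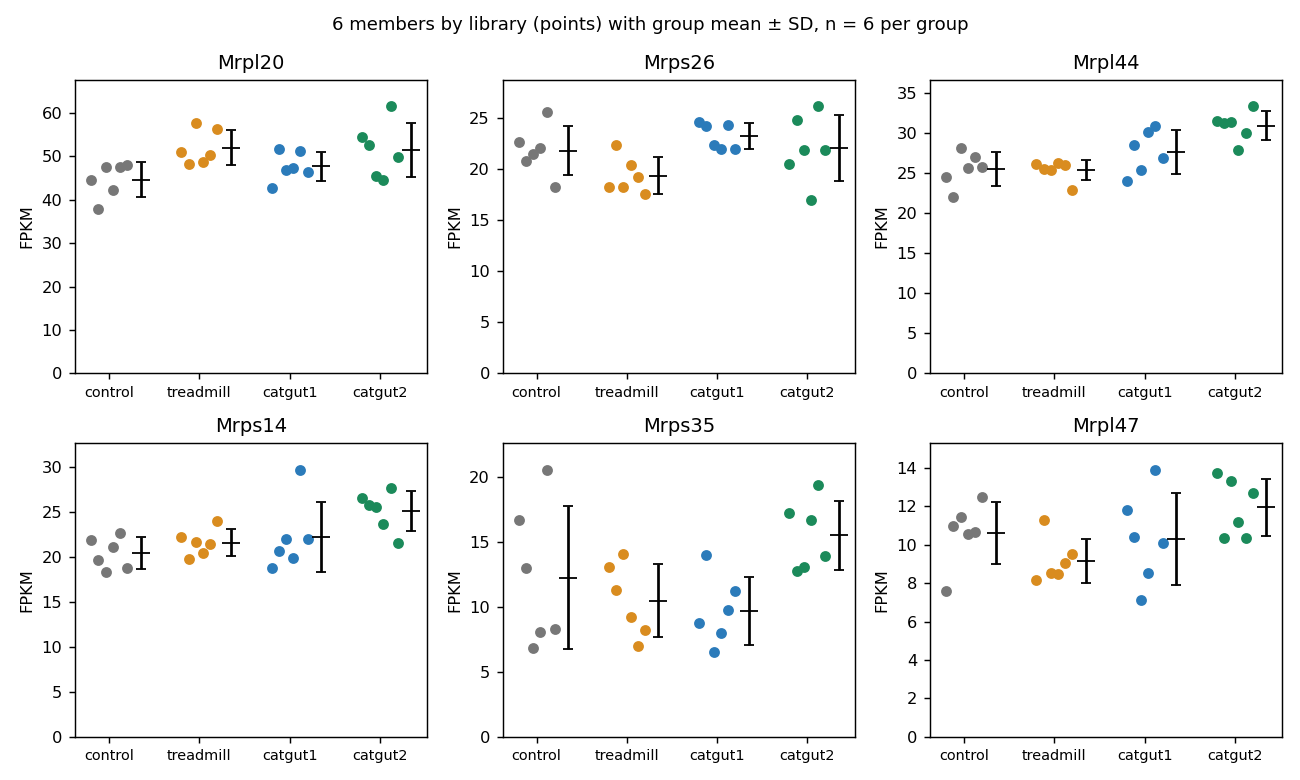
FPKM of 6 members in each library (points) by group, with the group mean ± SD (n = 6). Mrpl20 separates treadmill from control and Mrpl44 separates catgut2 from treadmill, while Mrps35 spans 6.87 to 20.6 FPKM within the control group alone.

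Of the 450 tests of members, 17 had an unadjusted p under 0.05, in 13 genes and each in the upward direction, which is 3.78% of the tests higher and 0% lower. Of the 88632 tests of all genes, 4.63% were higher and 4.76% lower. In these edgeR fits members were thus called in a smaller share of tests than genes at large, 3.78% against 9.39% in either direction. With limma this varied between comparisons and directions. At an unadjusted p of 0.05, limma on log2(FPKM + 1) called 9.33% of members higher in treadmill vs control, against 3.24% of all genes. In catgut2 vs control it called 18.7% against 8.31%, and in catgut1 vs control 4% against 4.33%. In the same order of comparisons it called 0 members lower, against 4.24%, 6.25% and 3.55% of all genes. The 6 comparisons share libraries, so that Mrpl44, Mrps33 and Mrps6 appear against both treadmill and control through the same 6 catgut2 libraries. DESeq2 and limma also put 0 members past an adjusted p of 0.05 in every comparison. The standard error of a member's log2 fold change had a median of 0.11 to 0.13 by comparison. Differences well above this size, such as those of Mrps35 and Mrps14 given above, did not pass an adjusted p of 0.05. With 6 libraries a group, a member without a call may still differ. Members that did not separate included the highest, Mrpl54 (0.011 ± 0.13 SE in catgut2 vs control), and Mrpl33 (-0.048 ± 0.082 SE). In the same comparison Mrps30 (0.13 ± 0.086 SE) and Mrps18a (0.11 ± 0.10 SE), of the large subunit despite their symbols, did not stand out either. The paralogs Mrps18b (0.25 ± 0.20 SE) and Mrps18c (0.15 ± 0.10 SE) did not either, whereas Mrps36 had an unadjusted p under 0.05.

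By symbol the medians of Mrpl and Mrps genes lay within a few hundredths of each other, with opposite signs in catgut1 vs treadmill, and were not compared by a test. In the order in which the comparisons are described above, the 46 Mrpl genes had median log2 fold changes of 0.058, -0.011, 0.032, 0.026, 0.054 and 0.11, and the 29 Mrps genes 0.067, 0.015, 0.015, 0.0058, 0.093 and 0.11. By ancestry in catgut2 vs control, 17 of 21 large-subunit members specific to mitochondria lay above 0 (median 0.11), 22 of 27 large-subunit members with a bacterial counterpart (median 0.12), 9 of 10 small-subunit members specific to mitochondria (median 0.17) and 11 of 16 small-subunit members with a counterpart (median 0.085). These groups follow the split used for the levels, with Mrps18a and Mrps18b counted as specific to mitochondria, and were not compared by a test.

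Genes that build, feed or use the mitochondrial ribosome were read from the same fits, and 0 of each list passed an adjusted p of 0.05 in any comparison. The counts below are for catgut2 vs control, where 49.3% of all genes lay above 0, and 8.04% were higher and 8.40% lower at an unadjusted p of 0.05. Of 4 ribosomal proteins with other symbols (Dap3, Ptcd3, Chchd1 and Gadd45gip1), 3 lay above 0 (median 0.042), with 1 higher. Of 26 factors that process ribosomal RNA or assemble the subunits, 18 lay above 0 (median 0.072), with 0 higher and 1 lower at an unadjusted p of 0.05. Of 16 factors of mitochondrial translation, 9 lay above 0 (median 0.076), with 2 higher and 3 lower. Of 23 rows for mitochondrial tRNA synthetases, 16 lay above 0 (median 0.042), with 0 higher and 1 lower. Of 19 factors of mitochondrial transcription and its nuclear regulators, 10 lay above 0 (median 0.036), with 2 higher and 1 lower. Of the 13 protein genes of mitochondrial DNA, 11 lay above 0 (median 0.10), with 1 higher. The 79 cytosolic ribosomal proteins had a median of 0.011, with 41 above 0, 4 higher and 2 lower. In treadmill vs control the translation factors had a median of -0.11 (6 of 16 above 0) and the assembly factors -0.027 (11 of 26), beside 0.060 for the members.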

How the data were processed

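Poly(A) RNA of 24 quadriceps samples was sequenced as paired ends. The submitters' processing notes name HISAT2 2.0 and StringTie 1.3.0; the genome build, the counting tool, its use of strand and its handling of reads that map to several places are not given in the sources used here. The deposited table holds raw read counts and FPKM values made by the authors for each gene and library. Counts of 4 are the commonest value above 0, what 1 count stands for is not given in the sources used here, and a fit on counts divided by 4 was run as an alternative. No column lacked a sample, and no 2 libraries were identical.

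Members and lists were chosen with earlier results of these data known. Genes with a mean of at least 0.1 FPKM were tested with edgeR 4.0.16 (R 4.3.3; TMM scaling, quasi-likelihood F test, Benjamini-Hochberg adjustment over all genes tested), the 12 libraries of each pair of groups alone; single members also by an exact permutation test over all 924 arrangements of 12 libraries, two-sided. Alternatives used DESeq2 1.42.0, limma 3.58.1 on log2(FPKM + 1) and log2(FPKM + 0.1), median-ratio scaling, no filter, a mean of at least 1 FPKM, 1 fit over 4 groups, a term for the level of Y-linked transcripts, a block for the replicate number, and each library left out. The code was tested on simulated data. Deviations between libraries used log2 CPM with a prior count of 2. The study's own criterion was applied to ratios of mean FPKM and edgeR p-values.

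Named with values were the 3 higher and 3 lower members with the smallest unadjusted p under 0.05 in each comparison, the 5 highest and 5 lowest in mean FPKM, the 3 with the largest SD of log2(FPKM + 1), Mrps18a, Mrps18b, Mrps18c, Mrps30 and Mrps36; others are marked in the text. Depth ranged from 45945938 to 78278080 counts per library, and every member had at least 205 counts in each. No counting error was derived from these, since the unit of a count is unknown.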

Additional observations from a re-analysis of the deposited data

Results flagged for a closer look

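In the 100 group-wise sets of 6 values examined (24 named members and the median of all members, each in 4 groups), 8 had a library whose gap to its nearest neighbour took an unusually large part of the range of the group (Dixon's criterion at 95%, limit 0.625 for 6 libraries). Chance flags about 1 in 20 groups.

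Mrpl53 stood at 95.1 FPKM in control replicate 1, with the next control library at 44.2 FPKM. Mrpl33 stood at 151 FPKM in control replicate 5, with the next at 121 FPKM. Mrps14 reached 29.7 FPKM in catgut1 replicate 5, with the next at 22.1 FPKM. Treadmill replicate 2 was low in Mrpl12 (55.6 FPKM, next 83.5) and in Mrps18b (22.3 FPKM, next 36.9). Mrpl44 was low in treadmill replicate 6 (22.9 FPKM, next 25.4), and Mrps36 in catgut2 replicate 4 (33.5 FPKM, next 44.9). The median deviation of all members in control replicate 4 was -0.34 on the log2 scale, with the next control library at -0.042. Treadmill replicate 2 and catgut2 replicate 4 were also the lowest of their groups in that median.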

How the results depend on the processing

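No member passed an adjusted p of 0.05 in any of the 6 comparisons under any of the 10 alternative fits or with any of the 12 libraries of a comparison left out. The median log2 fold change of the members stayed within the spread between libraries (0.165, the pooled SD of the library medians) throughout. With 1 library left out it ran from 0.0078 to 0.11 (treadmill vs control), -0.063 to 0.045 (catgut1 vs treadmill), -0.037 to 0.056 (catgut2 vs treadmill), -0.044 to 0.074 (catgut2 vs catgut1), 0.027 to 0.11 (catgut1 vs control) and 0.046 to 0.16 (catgut2 vs control), so that in 3 comparisons its sign rested on single libraries. The 17 fold changes of single members kept their sign under every alternative.

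With the replicate number as a block the medians were 0.063, -0.0025, 0.025, 0.019, 0.072 and 0.10 in the same order, and 0 members passed. What the replicate numbers stand for is not given in the sources used here. Same-numbered libraries of 2 groups correlated at -0.23 to 0.23, at most 1 of 6 above 0.1. Of the 24 libraries, 4 were closest to one with their own number. No strong pairing by number was seen, though these values cannot show that there was none. The block changed no call of a member at an adjusted p of 0.05. Before adjustment, at p under 0.05, it gave 1, 1, 4, 1, 0 and 9 members higher, in place of 2, 1, 5, 1, 1 and 7. With the block these were 1.33%, 1.33%, 5.33%, 1.33%, 0% and 12% of members. Of all genes, 3.47%, 2.76%, 4.66%, 2.11%, 4.11% and 7.16% were higher with the block. A term for the level of Y-linked transcripts gave medians of 0.063, -0.0083, 0.066, 0.057, 0.081 and 0.11. Before adjustment that term gave 1, 1, 8, 3, 1 and 8 members higher. These were 1.33%, 1.33%, 10.7%, 4%, 1.33% and 10.7% of members. With the same term 4.36%, 3.45%, 5.71%, 2.10%, 5.40% and 9.11% of all genes were higher.

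The correlation between members depended on the scale. On log2(FPKM + 1), an alternative chosen after seeing the data, the median over pairs of members was 0.20 in place of 0.57, and that over all genes 0.14 in place of -0.0004. With each library left out in turn, also chosen after seeing the data, the median over pairs of members was 0.53 to 0.60. Limits are the 6 libraries per group, the unstated strand of counting and the few libraries that stand apart.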
